A study of Mus musculus with 6 samples.

Results

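The genes for the protein subunits of the mitochondrial ribosome (mitoribosome) were followed through 6 RNA-seq libraries of sorted mouse spleen cells, 3 from normal mice and 3 from mice with T cell acute lymphoblastic leukemia (T-ALL). Members were taken by name: every Entrez identifier in the files whose mouse symbol is Mrpl or Mrps followed by a digit, without pseudogenes, which gave 78 of the 16058 identifiers listed. Of these, 49 are Mrpl and 29 are Mrps symbols. By the protein's place in the ribosome 51 belong to the large subunit, counting Mrps18a and Mrps30, and 26 to the small subunit. The last, Mrps36, was named as a ribosomal protein but is now known as Kgd4, a component of the α-ketoglutarate dehydrogenase complex. All 78 were listed in all 6 libraries, with values from 5.64 to 203.67 FPKM (fragments scaled by transcript length and library depth), so no member was lost to a filter on low values. The symbol table holds 6 pseudogenes of these genes and the files list 0 of them.

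The mitoribosome translates the few messenger RNAs of the mitochondrial genome, all of which encode core subunits of the respiratory chain and the ATP synthase. Its RNAs come from mitochondrial DNA, whereas every one of its proteins is encoded in the nucleus, made on cytosolic ribosomes and imported. Some of the proteins descend from those of the bacterial ribosome, and 46 members were grouped as such. A further 31 were grouped as specific to mitochondria. Mrps18a and Mrps18b were placed in this second group, although Mrps18c was placed in the first. In macrophages oxidative phosphorylation differs with activation state, and in dividing cells mitochondrial mass has to be renewed at each division.

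The mice were C57BL/6, 6 to 8 weeks old. The leukemic mice had received 1000000 GFP-positive cells isolated from other leukemic mice, without irradiation, and were sampled on day 15; the mice of the model survived 35 to 40 days, and the normal libraries are day 0. In each state 3 gates of spleen cells labelled as macrophages were sorted on the monocyte antigen Ly6c and the macrophage antigen F4/80: cells high for Ly6c and low for F4/80 (Ly6chiF4/80lo), cells low for both (Ly6cloF4/80lo), and cells low for Ly6c and high for F4/80 (Ly6cloF4/80hi). There was 1 library for each gate and state, and the labels do not say how many mice were pooled. A state was therefore compared over the 3 gates, which stand in for replicates. A p-value measures the spread between these libraries only. In all sentences below, 3 values in a row are in the gate order just given.

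The gates carried their sorting genes. Ly6c2 was at 481.9 FPKM (normal) and 1405.14 FPKM (T-ALL) in the Ly6chiF4/80lo libraries and between 11.76 and 21.44 in the others, and Adgre1, which encodes F4/80, was at 529.16 and 234.45 FPKM in the Ly6cloF4/80hi libraries and between 47.31 and 86.69 in the others. The macrophage genes Cd68 and Csf1r were present in all 6, at levels that differed with state. Cd68 was at 412, 210 and 601 FPKM in the normal gates, against 185, 166 and 305 FPKM in T-ALL. Csf1r was at 673, 218 and 1488 FPKM in the normal gates, against 333, 256 and 574 FPKM in T-ALL. The Ly6chiF4/80lo libraries also held a high sum of 9 neutrophil markers (13470 FPKM normal, 45214 T-ALL). The sum of the erythroid markers (13 of 14 symbols were listed) was 36263 FPKM in the T-ALL Ly6cloF4/80hi library. Depth, estimated from the spacing of the values, was between 6840000 and 8810000 fragments per library. By this estimate the median member rested on 173 to 353 fragments and had a counting error of 5.3% to 7.6%.

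The sequences around the start sites of 5 members are shown, with matches to searched motifs in capitals. RefSeq windows (build GRCm38.p6) of 250 bases before to 50 after the annotated start were found for 69 of the 78 members, and each was searched on both strands for 4 short motifs of factors known to act on genes of mitochondrial biogenesis or growth. These were CCGGAAG (the ETS motif, bound by GABPA), GCATGCG (NRF1), GATGGCG (YY1) and CACGTG (the E-box bound by MYC). None of the 4 contains another, in either direction. The ETS motif was in 25 of the 69 windows (36.2%), against 9.1% of all 27025 windows and 19% of the 9428 windows of genes tested here. NRF1 and YY1 motifs were each in 8 windows (11.6%), against 6.7% and 6.8% of tested genes, and the E-box was in 5 (7.2%, against 10.3%). A match is a description of the letters and does not show that a factor binds. Mrpl57 and Mrps22, which were among the members with the largest change in T-ALL, are shown with the ETS motif in capitals. The windows of Mrpl12 and Mrpl20, also among the largest changes, are not shown. The Mrpl12 window held none of the 4 motifs and the Mrpl20 window held the E-box alone. The ETS motif was also in the window of Mrpl27, whose log2 change was 0.04. Mrpl35, the member with the lowest change, and Mrps11 are shown with the YY1 motif in capitals, which in Mrps11 reads on the reverse strand. The marked matches of Mrpl57 (position 255) and Mrpl35 (position 276) lie after the annotated start. Mrps11 and Mrpl46 are a small and a large subunit gene that start head to head, and their windows share 141 bases (chr7:78783040-78783180). No searched motif was in the Mrpl46 window. The YY1 match of Mrps11 lies just past the end of the Mrpl46 window, so this absence depends on where that window was cut.
Mrpl57, chr14:57825989-57826288, plus strand: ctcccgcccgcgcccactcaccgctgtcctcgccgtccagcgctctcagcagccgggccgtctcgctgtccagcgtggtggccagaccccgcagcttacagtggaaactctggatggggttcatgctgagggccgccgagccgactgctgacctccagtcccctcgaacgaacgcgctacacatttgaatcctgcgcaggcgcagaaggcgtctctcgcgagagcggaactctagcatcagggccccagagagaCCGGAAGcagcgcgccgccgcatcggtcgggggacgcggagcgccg
Mrps22, chr9:98601630-98601929, minus strand: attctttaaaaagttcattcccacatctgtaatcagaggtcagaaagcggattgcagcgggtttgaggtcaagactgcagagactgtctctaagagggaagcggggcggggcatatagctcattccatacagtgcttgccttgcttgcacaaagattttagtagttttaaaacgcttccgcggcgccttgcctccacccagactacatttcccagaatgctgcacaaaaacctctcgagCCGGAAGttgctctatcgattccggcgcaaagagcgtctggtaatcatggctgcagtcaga
Mrpl35, chr6:71823735-71824034, minus strand: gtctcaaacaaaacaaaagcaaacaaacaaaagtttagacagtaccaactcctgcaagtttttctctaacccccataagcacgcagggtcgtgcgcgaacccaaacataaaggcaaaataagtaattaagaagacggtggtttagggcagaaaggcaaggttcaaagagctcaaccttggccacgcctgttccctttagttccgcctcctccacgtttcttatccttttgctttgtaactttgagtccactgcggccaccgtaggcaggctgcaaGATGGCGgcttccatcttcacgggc
Mrps11, chr7:78782881-78783180, plus strand: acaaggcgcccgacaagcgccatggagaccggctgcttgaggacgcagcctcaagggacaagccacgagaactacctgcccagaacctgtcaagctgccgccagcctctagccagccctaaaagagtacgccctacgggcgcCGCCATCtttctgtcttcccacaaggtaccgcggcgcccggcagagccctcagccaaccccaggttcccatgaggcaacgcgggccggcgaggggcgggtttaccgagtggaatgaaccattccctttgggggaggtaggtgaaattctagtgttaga
Mrpl46, chr7:78783040-78783339, minus strand: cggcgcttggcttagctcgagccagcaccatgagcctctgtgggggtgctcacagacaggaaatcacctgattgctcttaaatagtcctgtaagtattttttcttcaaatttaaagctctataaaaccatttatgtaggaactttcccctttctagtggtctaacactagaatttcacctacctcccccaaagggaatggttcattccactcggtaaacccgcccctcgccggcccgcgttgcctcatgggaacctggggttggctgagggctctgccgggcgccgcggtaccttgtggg

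The members spanned a wide range of levels. By mean FPKM over the 6 libraries the highest were Mrpl52 (139 FPKM), Mrpl33 (121.3 FPKM), Mrpl18 (98.2 FPKM), Mrpl42 (94.6 FPKM) and Mrpl23 (91.8 FPKM), all of the large subunit. Mrpl23 encodes a protein beside the exit of the tunnel through which the new chain leaves, Mrpl33 and Mrpl18 encode relatives of bacterial proteins, and Mrpl52 and Mrpl42 encode proteins that bacteria lack. The lowest were Mrps25 (7.08 FPKM), Mrpl19 (7.87 FPKM), Mrpl17 (8.55 FPKM), Mrpl11 (11.8 FPKM) and Mrps31 (14 FPKM). Mrpl11 encodes a protein at the base of the stalk to which the translation factors bind. FPKM is per transcript length, so these levels can be set side by side; the levels of the proteins were not measured.

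In every gate the members together took a larger part of the library in T-ALL. Their FPKM summed to 2699, 3041 and 2630 in the normal libraries and to 3663, 4218 and 4241 in the T-ALL libraries. As a share of all FPKM this was 0.525%, 0.57% and 0.532% in normal and 0.628%, 0.763% and 0.738% in T-ALL. The groups did not overlap, and the lowest T-ALL library, Ly6chiF4/80lo, stood closest to the normal ones. Of the 78 members, 39 had their highest value in the T-ALL Ly6cloF4/80lo library, 26 in T-ALL Ly6cloF4/80hi and 10 in T-ALL Ly6chiF4/80lo; the other 3 were highest in a normal library. The lowest value was in normal Ly6chiF4/80lo for 40 members and in normal Ly6cloF4/80hi for 30. In bulk RNA, more cells of a type and more RNA per cell cannot be told apart.

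Gene by gene, 25 of the 78 members (32.1%) rose in T-ALL and 0 fell (limma on log2(FPKM + 1) with gate as a block, Benjamini-Hochberg adjusted p below 0.05 over the 11616 genes that reached 1 FPKM in 2 or more libraries). Among all tested genes 8.2% rose and 3.94% fell. The median change of the members was 0.49 on the log2(FPKM + 1) scale, against −0.03 for all tested genes, and 77 of the 78 were above 0, from −0.07 (Mrpl35) to 1.09 (Mrps28). Of the 11616 tested genes, 5516 were above 0. At an unadjusted p below 0.05 there were 61 members, all of them higher, where 34.8% of all tested genes passed in either direction and 19.4% as higher. In 51 members each T-ALL library was above each normal library, which 13.8% of all tested genes also were, and 69 members were higher in T-ALL in all 3 gates, as 27.9% of tested genes were. The number called depended on each gate: with the normal or the T-ALL Ly6chiF4/80lo library left out it was 14 (17.9% of members, against 7.23% or 7.13% of all genes). It was 3 without normal Ly6cloF4/80lo (3.85% against 5.41%), 4 without T-ALL Ly6cloF4/80lo (5.13% against 5.98%), and 1 without normal or T-ALL Ly6cloF4/80hi (1.28% against 2.2% or 2.48%). It was also 1 (1.28%, Mrps28) with no filter on low values, against 1.82% of all genes, and 1 (Mrps28) without the gate block, against 1.27%. In the settings that left 4 calls or fewer the share of members called was thus close to or below that of all genes. The median change stayed between 0.42 and 0.56 in each of these settings and with another pseudocount, filter, scaling or prior. Filter, prior and gate block cannot move this median, so those settings do not test it.

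**Figure D1:**
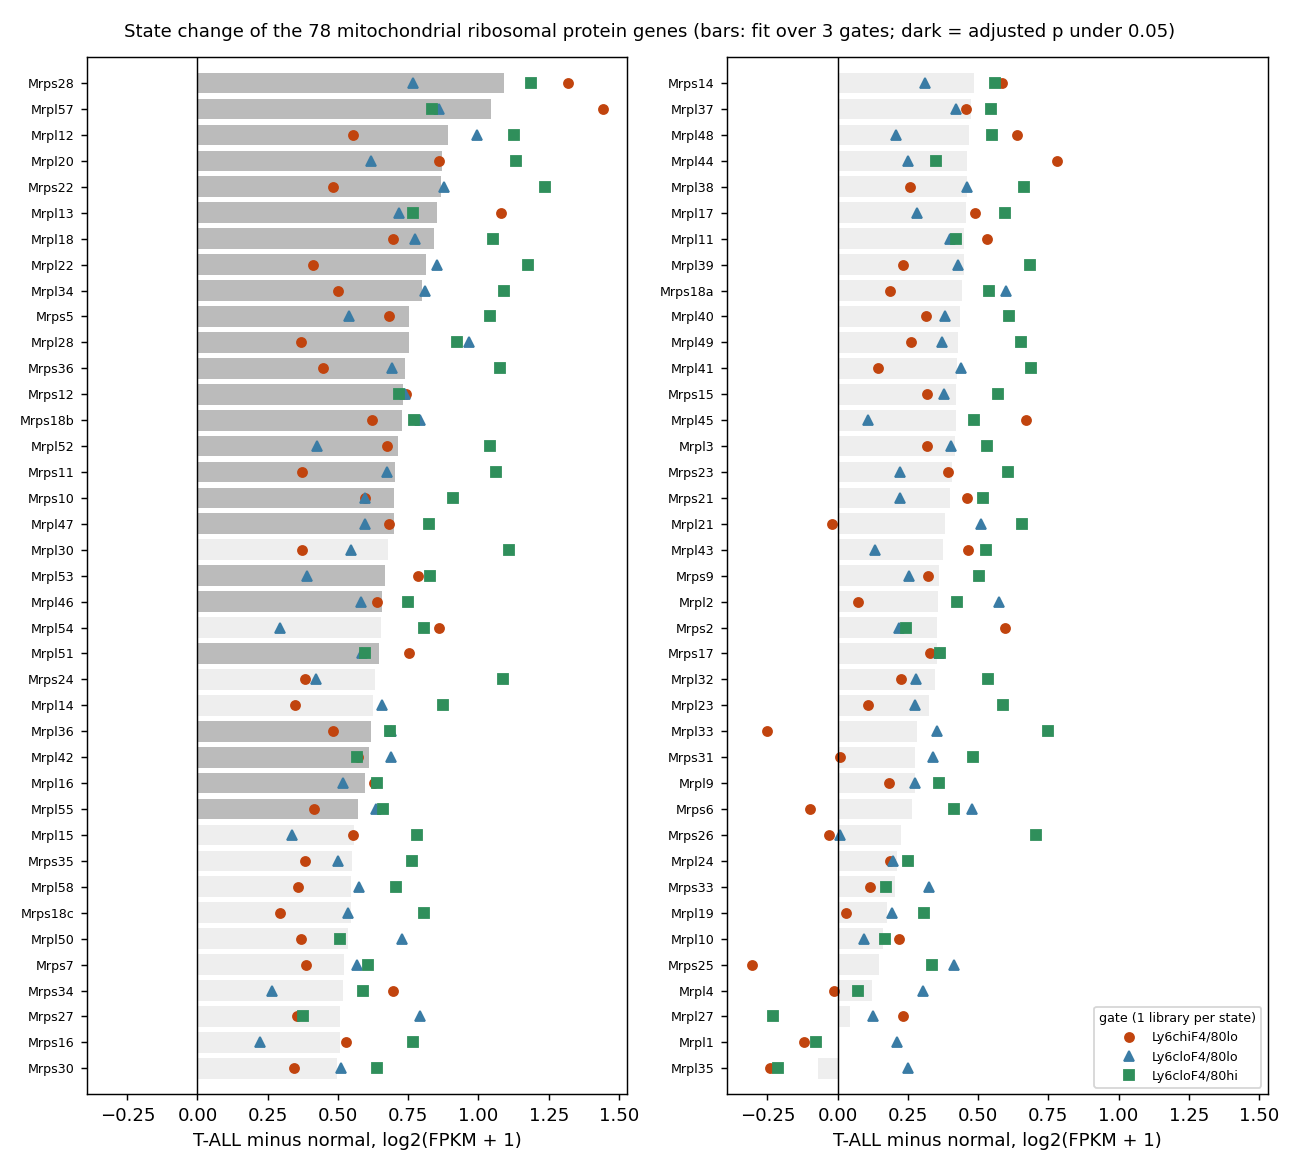
Change from normal to T-ALL of each of the 78 members on the log2(FPKM + 1) scale; bars are the fit over the 3 gates (dark where the adjusted p is below 0.05) and points are the 3 gates, with 1 library per state. Only Mrpl35 has a bar below 0, and the Ly6cloF4/80hi points lie furthest to the right for most members.

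Among small subunit genes, Mrps28 had the largest change of all members. It was at 26.7, 36 and 30.7 FPKM in the normal libraries and at 68.1, 62.1 and 71.2 FPKM in the T-ALL libraries, with no overlap (log2 change 1.09, SE 0.16, limma adjusted p = 0.0158). Mrps28 passed the threshold in 13 of 15 alternatives. Mrps22, a subunit that bacteria lack and whose inherited defects in people cause respiratory chain deficiency, was at 13.6, 15.9 and 12.9 FPKM in the normal gates, against 19.4, 30.2 and 31.8 FPKM in T-ALL (log2 change 0.87, SE 0.18, limma adjusted p = 0.0339). Its T-ALL libraries were all above its normal ones, Ly6chiF4/80lo by the least. Mrps5, a relative of a bacterial protein that lines the channel where messenger RNA enters, was at 15.7, 20.9 and 17 FPKM in the normal gates, against 25.8, 30.8 and 36 FPKM in T-ALL (log2 change 0.75, limma adjusted p = 0.0326). In all, 7 of the 26 small subunit genes rose and 0 fell, where 8.2% and 3.94% of all tested genes did. The median log2 change of the 26 was 0.51. The others that rose were Mrps10, Mrps11, Mrps12 and Mrps18b, with log2 changes between 0.70 and 0.73. Mrps12, which encodes the relative of a bacterial decoding-site protein, was nearly the same in its 3 gates, with log2 changes of 0.74, 0.74 and 0.72.

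Among large subunit genes, 17 of 51 rose and 0 fell, where 8.2% and 3.94% of all tested genes did. The median log2 change of the 51 was 0.47. Mrpl57, whose small protein has no bacterial counterpart, was at 18.2, 17.1 and 15.9 FPKM in the normal gates, against 51.2, 31.8 and 29.1 FPKM in T-ALL (log2 change 1.05, SE 0.17, limma adjusted p = 0.0206). All its T-ALL libraries were above its normal ones, and the Ly6chiF4/80lo library stood highest. Mrpl12 encodes the protein of the flexible stalk and also binds the mitochondrial RNA polymerase. It was at 39.1, 47 and 43 FPKM in the normal gates, against 57.8, 94.8 and 95.1 FPKM in T-ALL (log2 change 0.89, SE 0.16, limma adjusted p = 0.0257), with the opposite order: its Ly6chiF4/80lo library rose least. Mrpl20, an RNA-binding protein of the large subunit, was at 66.3, 71.3 and 55.1 FPKM in the normal gates, against 121.03, 109.81 and 122.11 FPKM in T-ALL (log2 change 0.87, limma adjusted p = 0.0257).

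Mrpl13 (33.6, 46.9 and 40.1 FPKM in normal, 72.3, 77.8 and 68.9 in T-ALL) and Mrpl18 (73, 72.7 and 64.5 FPKM in normal, 119, 125 and 135 in T-ALL) did not overlap between states either; their log2 changes were 0.85 and 0.84. Both encode relatives of bacterial proteins. Mrpl22, whose protein lines the exit tunnel, was at 22.6, 23.1 and 16.8 FPKM in the normal gates, against 30.4, 42.5 and 39.3 FPKM in T-ALL (log2 change 0.81). Mrpl34 and Mrpl28 rose with log2 changes of 0.80 and 0.75 (limma adjusted p = 0.0329 and 0.0418). Mrps36, the α-ketoglutarate dehydrogenase component, rose too, with a log2 change of 0.74 (limma adjusted p = 0.0406). Of the 12 members with the largest changes, 2 kept their call in at least 13 of 15 alternatives, Mrps28 and Mrpl57; the other 10 kept it in 6 to 10.

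**Figure D2:**
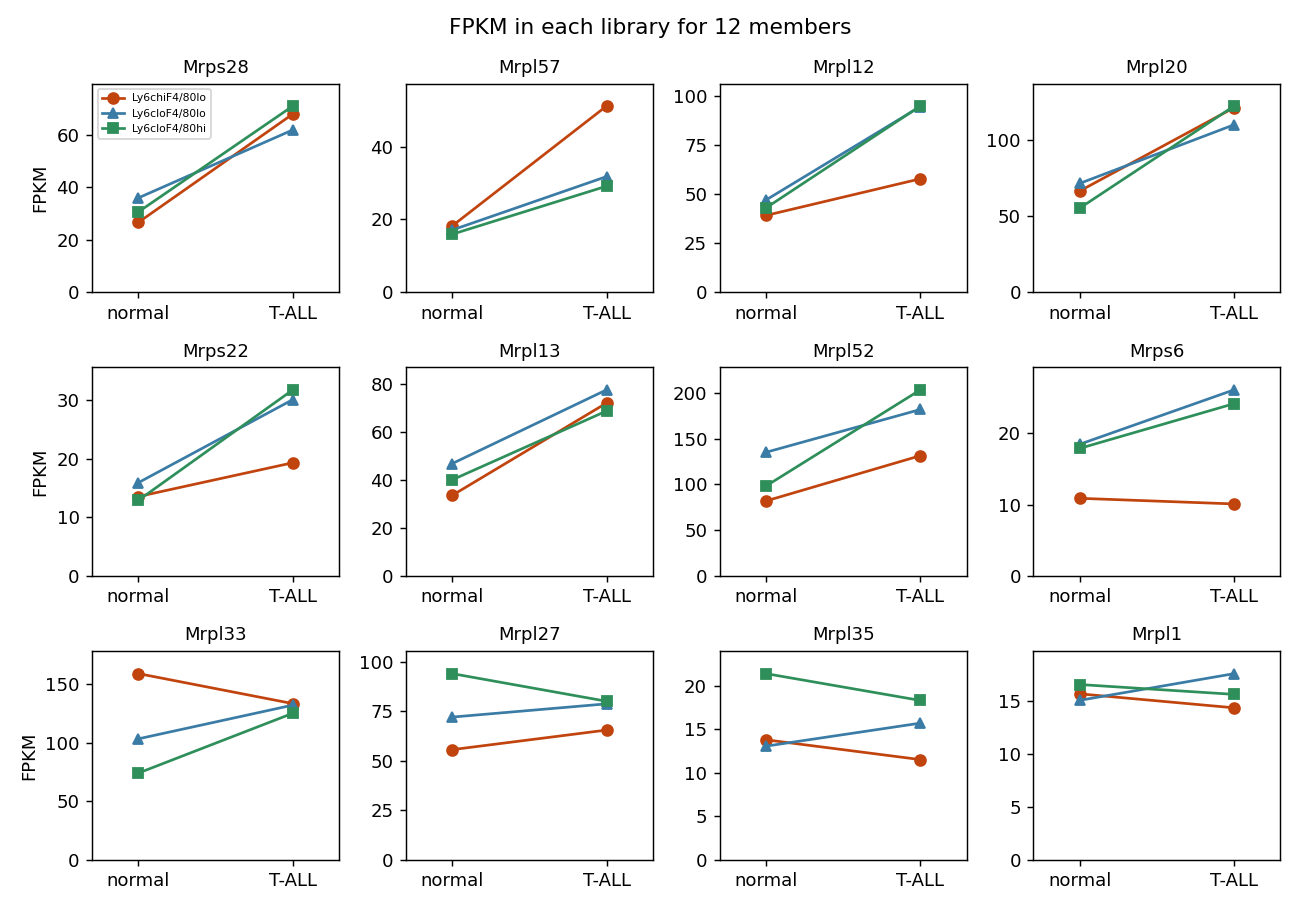
FPKM of 12 members in each of the 6 libraries; lines join the normal and the T-ALL library of a gate. The first 6 panels (Mrps28 to Mrpl13) have no overlap between states, whereas the lines of Mrps6, Mrpl33, Mrpl27, Mrpl35 and Mrpl1 run in different directions in different gates.

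Of the 5 most abundant members Mrpl18 alone was among the 12 with the largest changes. Mrpl52 rose (82, 135 and 98.3 FPKM in normal, 132, 182 and 204 in T-ALL, log2 change 0.72, limma adjusted p = 0.0489) although its states overlapped, since the T-ALL Ly6chiF4/80lo value lay below the normal Ly6cloF4/80lo value. Mrpl42 rose with a log2 change of 0.61 (limma adjusted p = 0.041). Mrpl52 kept its call in 3 and Mrpl42 in 4 of 15 alternatives. Mrpl23 had a log2 change of 0.32 (limma adjusted p = 0.195) and Mrpl33 of 0.28 (limma adjusted p = 0.385). The 5 members of lowest level had log2 changes between 0.15 (Mrps25) and 0.46 (Mrpl17), and 0 of the 5 passed; 1 fragment weighs more there, since Mrps25 rested on 22.2 fragments in its lowest library.

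At the other end, Mrpl35 was at 13.8, 13.1 and 21.4 FPKM in the normal gates, against 11.5, 15.7 and 18.3 FPKM in T-ALL, Mrpl1 at 15.7, 15.1 and 16.5 and at 14.3, 17.6 and 15.6 FPKM, and Mrpl27 at 55.7, 72.2 and 94.2 and at 65.6, 78.9 and 80.2 FPKM. Their states overlapped, and the log2 changes were −0.07, 0.00 and 0.04, with standard errors of 0.14 to 0.16. Mrpl4, a relative of a bacterial tunnel-wall protein, had a log2 change of 0.12 (limma adjusted p = 0.573). The members grouped as having a bacterial counterpart and those grouped as specific to mitochondria had similar medians. In the first group 16 of 46 rose with a median log2 change of 0.50, and in the second 8 of 31 rose with a median of 0.47. Among all tested genes 8.2% rose. The difference was not tested, and the grouping is approximate.

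Within a gate there was 1 library per state and no test. The median log2 change of the members was 0.39 in Ly6chiF4/80lo, 0.43 in Ly6cloF4/80lo and 0.64 in Ly6cloF4/80hi, against −0.07, 0.00 and 0.02 for all tested genes. At least 1.5-fold higher were 22, 24 and 47 of the 78 members, where 14.5%, 13% and 19.8% of all tested genes were, and 0 members were 1.5-fold lower in any gate, where 14.5%, 7.35% and 15.6% of all tested genes were. All 78 were above 0 in Ly6cloF4/80lo, 75 in Ly6cloF4/80hi and 70 in Ly6chiF4/80lo. Of the 11616 tested genes, 5775, 5962 and 5193 were above 0 in these 3 gates as just named. The larger count in Ly6cloF4/80hi was not tested against the others.

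The gates were led by different members. In Ly6chiF4/80lo the highest log2 changes were those of Mrpl57 (1.44), Mrps28 (1.32) and Mrpl13 (1.08), and the lowest those of Mrps25 (−0.31), Mrpl33 (−0.25) and Mrpl35 (−0.24). In Ly6cloF4/80lo they were Mrpl12 (1.00), Mrpl28 (0.97) and Mrps22 (0.88) at the top and Mrps26 (0.01), Mrpl10 (0.09) and Mrpl45 (0.11) at the bottom. Mrpl10 encodes the anchor of the stalk on which the Mrpl12 protein sits. In Ly6cloF4/80hi they were Mrps22 (1.24), Mrps28 (1.19) and Mrpl22 (1.18), and Mrpl27 (−0.23), Mrpl35 (−0.21) and Mrpl1 (−0.08). Mrps28 and Mrps22 were thus each among the 3 highest in 2 of the 3 gates, and Mrpl35 among the 3 lowest in 2.

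Between gates, over both states, 1 member changed. Mrps6, a small subunit gene with a bacterial counterpart, was at 10.9 FPKM (normal) and 10.1 FPKM (T-ALL) in Ly6chiF4/80lo, at 18.5 and 26.1 FPKM in Ly6cloF4/80lo, and at 17.9 and 24.2 FPKM in Ly6cloF4/80hi. It was higher in Ly6cloF4/80hi than in Ly6chiF4/80lo (log2 difference 0.93, SE 0.20, limma adjusted p = 0.0348) and in Ly6cloF4/80lo than in Ly6chiF4/80lo (log2 difference 1.00, SE 0.20, limma adjusted p = 0.0494); both comparisons use the same Ly6chiF4/80lo libraries. The first call was lost in 5 of 15 alternatives, among them leaving out the T-ALL Ly6chiF4/80lo library or either Ly6cloF4/80hi library. The second was lost in 10, among them leaving out the T-ALL Ly6chiF4/80lo library or either Ly6cloF4/80lo library. The exons of Mrps6 overlap those of Slc5a3, an inositol transporter gene on the same strand, which was at 0.41 to 2.03 FPKM, so its reads could have been divided in more than 1 way.

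For the other 77 members no difference between gates passed, and the background differs between the comparisons. Of all tested genes 12.8% passed for Ly6cloF4/80hi against Ly6chiF4/80lo, 4.73% for Ly6cloF4/80lo against Ly6chiF4/80lo and 3.56% for Ly6cloF4/80hi against Ly6cloF4/80lo. In the last of these 0 members passed by limma, and 0 had an unadjusted p below 0.05, as 19% of all tested genes did. The median log2 differences of the members in the 3 comparisons were 0.12, 0.24 and −0.10, and those of all tested genes 0.12, 0.19 and −0.10. Rescaling the libraries by median ratios moved the latter to 0.03, 0.01 and −0.01 and the members' medians to 0.02, 0.04 and 0.01, the last with a change of sign.

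Around the mitoribosome, the other parts of mitochondrial protein synthesis were counted in lists. For comparison, 8.2% of all tested genes rose and 3.94% fell. Of 5 subunits not named Mrpl or Mrps, 2 rose and 0 fell (median log2 change 0.59): Chchd1, at 43.1, 61.2 and 35.6 FPKM in the normal gates, against 73.4, 90.5 and 87.1 in T-ALL (log2 change 0.86, limma adjusted p = 0.0342), and Gadd45gip1 (log2 change 0.63, limma adjusted p = 0.0367). Of 15 translation factors 3 rose and 0 fell (median 0.23). These were Slirp, which with Lrpprc stabilises mitochondrial messenger RNA (log2 change 0.83, limma adjusted p = 0.0206), Tsfm, the exchange factor of the elongation factor Tufm (0.76, limma adjusted p = 0.0229), and Tufm itself (0.70, limma adjusted p = 0.0407).

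By limma 0 passed among 17 mitochondrial aminoacyl-tRNA synthetases (median log2 change 0.21, 6 at an unadjusted p below 0.05, where 34.8% of all genes lie), 23 assembly factors of the mitoribosome (0.12, 3 at an unadjusted p below 0.05), 10 genes of mitochondrial DNA transcription and replication (0.06, 0 at an unadjusted p below 0.05) and 8 regulators of mitochondrial biogenesis (0.14, 0 at an unadjusted p below 0.05). The genes encoded in mitochondrial DNA, which the mitoribosome translates, were not analysed here. The nuclear genes of the respiratory chain and ATP synthase, whose products assemble with those proteins, had 30 of 79 tested higher and 0 lower. Among all tested genes 8.2% were higher and 3.94% lower. The median log2 change of the respiratory chain genes was 0.62. In 72 of the 79 each T-ALL library was above each normal library, as in 13.8% of all tested genes.

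**Figure D3:**
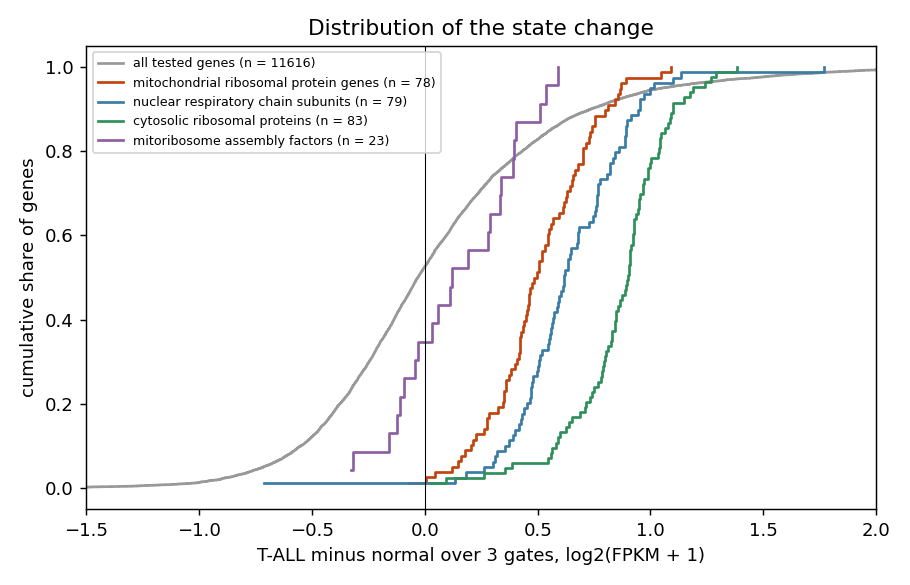
Cumulative share of genes at or below each log2 change from normal to T-ALL over the 3 gates, for the 78 members, 3 related lists and all 11616 tested genes. Except at its upper end the curve of the members lies to the right of those of all genes and of the assembly factors, with medians of 0.49, −0.03 and 0.12.

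The genes of the cytosolic ribosome, which makes the mitoribosomal proteins before import, were counted in the same way. Of 83 tested cytosolic ribosomal protein genes 11 rose and 0 fell, where 8.2% and 3.94% of all tested genes did. All 83 were above 0, as 5516 of the 11616 tested genes were. In T-ALL 76 of the 83 were higher in all 3 gates, as 27.9% of tested genes were. By limma 73 had an unadjusted p below 0.05, where 19.4% of all tested genes passed as higher. The median log2 change of these cytosolic genes was 0.90. Their medians within the gates were 1.11, 0.22 and 1.32, with Ly6cloF4/80lo lowest, whereas those of the members were 0.39, 0.43 and 0.64. The 85 listed cytosolic genes summed to 33512, 77368 and 33439 FPKM in the normal gates, against 68965, 86848 and 78235 FPKM in T-ALL. Their normal Ly6cloF4/80lo sum thus lay above the T-ALL Ly6chiF4/80lo sum. Each T-ALL library was above each normal library in 17 of the 83 cytosolic genes and in 51 of the 78 members, as in 13.8% of all tested genes. These counts describe 6 libraries, and the difference between the lists was not tested.

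**Figure D4:**
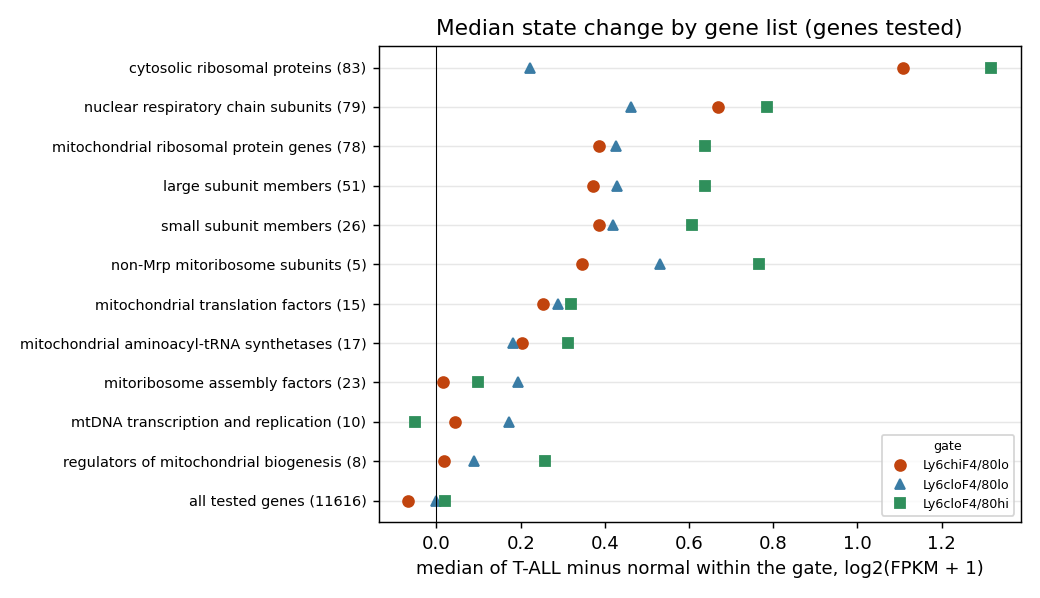
Median log2 change from normal to T-ALL within each gate (1 library per state) for the members, their subunits and related gene lists, with the number of genes tested in brackets. The members lie at 0.39, 0.43 and 0.64, between the respiratory chain genes and the lists of factors, and the cytosolic ribosomal proteins have the widest spread over the gates.

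Other properties of the libraries moved with state. The counts below stand beside 8.2% of all tested genes that rose and 3.94% that fell. Of the 11616 tested genes 5516 were above 0 over the 3 gates, and 5193, 5775 and 5962 within the gates. Of 21 cell cycle genes 20 rose and 0 fell, and their summed level was between 417 and 562 FPKM in the normal and between 1447 and 2191 FPKM in the T-ALL libraries. Of the 13 erythroid markers 6 rose, and their sum was 783, 579 and 4486 FPKM in the normal gates, against 808, 5698 and 36263 FPKM in T-ALL. Within the gates their median log2 change was 0.39, 3.25 and 3.47, and 12, 13 and 13 of the 13 were above 0. Of 6 plasma cell markers 5 rose (sums of 320 to 5344 FPKM in normal, 1435 to 13283 in T-ALL), and of 9 myeloid progenitor markers 7 rose (29.8 to 263 FPKM in normal, 94.6 to 1809 in T-ALL). Of 8 red pulp macrophage markers 7 fell (446 to 8491 FPKM in normal, 227 to 2541 in T-ALL), and of 6 dendritic cell markers 4 fell (104 to 324 FPKM in normal, 52.7 to 113 in T-ALL). Of 5 megakaryocyte and platelet markers 1 rose (12.9 to 18.9 FPKM in normal, 25.7 to 53.5 in T-ALL). Of 5 general macrophage markers 1 fell and 0 had a log2 change above 0, with a median of −0.72 (2546 to 13274 FPKM in normal, 1656 to 6531 in T-ALL). Of 8 T cell markers, which leukemic T cells could carry, 0 passed by limma and 1 had an unadjusted p below 0.05; their sum was 130.4, 91.9 and 50.9 FPKM in the normal gates, against 78.8, 66 and 105 FPKM in T-ALL, higher in T-ALL in Ly6cloF4/80hi and lower in the other gates. No listed marker was at 0 in any library. The part of these cells in the members' change was not tested.

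Transcript length moved with state as well. The members are short, with a median annotated length of 848 bases against 1359 for all tested genes, and the median log2 change of all tested genes fell from 0.12 for transcripts up to 750 bases to −0.15 above 3000 bases. Within each length range the median of the members lay above that of all genes: it was 0.61 for the 30 members up to 750 bases (0.12 for all genes), 0.46 for 23 members up to 1000 bases (0.06), 0.46 for 11 up to 1500 bases (−0.01), 0.56 for 5 up to 2000 bases (−0.05), 0.35 for 7 up to 3000 bases (−0.12) and 0.25 for the 2 longest (−0.15). With the length trend removed, an alternative added after seeing the data, 17 members rose (21.8%, against 6.12% of all genes). The members' median log2 change was then 0.39, against −0.055 for all genes.

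**Figure D5:**
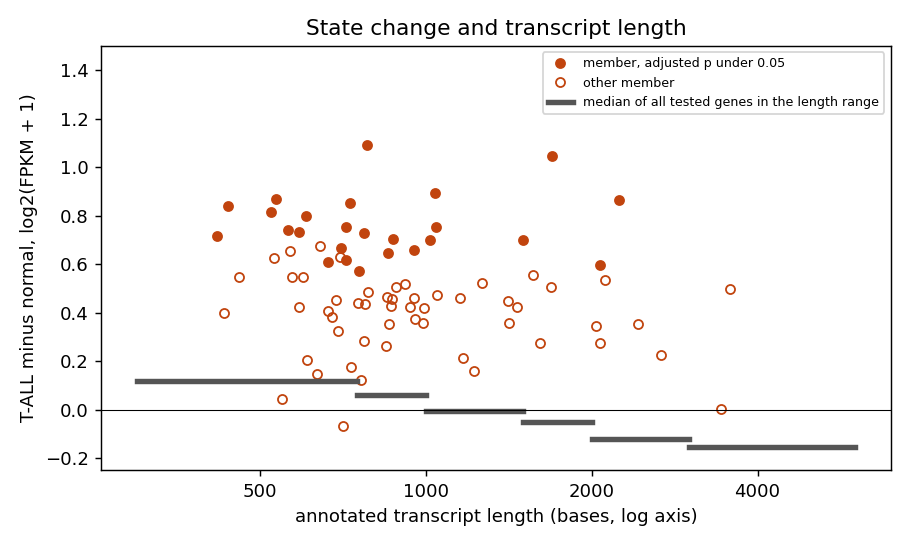
Change from normal to T-ALL of each member against its annotated transcript length (log axis), filled where the adjusted p is below 0.05; grey bars are the medians of all tested genes in 6 length ranges. The grey bars fall from 0.12 to −0.15, and most members lie above the bar of their range.

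The exons of 33 members overlap another annotated gene, and whether reads were counted by strand is not given in the sources used here. Mrpl18 overlaps Tcp1, a chaperonin gene that also rose (log2 change 1.01, limma adjusted p = 0.0242), and Mrpl36 overlaps the respiratory chain gene Ndufs6 (0.91, limma adjusted p = 0.0238). Mrpl47, a member that rose by 0.70, overlaps Actl6a (0.81, limma adjusted p = 0.0326). These partners lie on the opposite strand, and how reads in the shared exons were assigned is not known. Mrps11 and Mrpl46, the head-to-head pair whose promoters are shown above, rose by 0.70 and 0.66 (limma adjusted p = 0.0487 and 0.0306). The pairing did not always go with a common change: Mrpl27 overlaps Eme1, which rose by 1.49 (limma adjusted p = 0.0141), while Mrpl27 itself had a log2 change of 0.04. For 20 members an overlapping gene was tested, and these partners went in both directions. Partners with a change below 0, none of them called, were Mapk8ip3 (−0.44, with Mrps34 at 0.52), Gga3 (−0.4, with Mrps7 at 0.52) and Ighmbp2 (−0.37, with Mrpl21 at 0.38), among others. Of the members with a promoter window that rose, 10 of 23 held the ETS motif, and of the others 15 of 46 did; this difference was not tested.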

How the data were processed

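The authors deposited FPKM per Entrez gene. The submitters' processing notes name Bowtie2 2.2.5 and RSEM; which genome build, annotation and strand setting they used is not given in the sources used here. Genes missing from a file were taken as 0. Symbols came from a RefSeq table (GRCm38.p6), which matched 99.7% of 16058 identifiers and was used for names only. Annotated lengths and exon overlaps came from GENCODE M21. Depth was estimated from the spacing of low FPKM values, taken as whole multiples of 1 fragment for a gene's length. The fit was imperfect: a score that is 1 for exact multiples was between 0.571 and 0.676, over 256 to 311 genes per library. The error given for the fragments is counting error only.

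Genes that reached 1 FPKM in 2 or more of the 6 libraries were fitted with limma 3.58.1 (R 4.3.3) on log2(FPKM + 1), a scale that understates changes of low genes, with terms for gate and state, a trended and robust prior, and 2 residual degrees of freedom. Tests were two-sided with Benjamini-Hochberg adjustment over all genes. The fit was tested on simulated data. Within a gate, differences of log2(FPKM + 1) are given without a test. No count test was run, since the values are not counts. Promoter sequences are RefSeq's.

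The members and all gene lists were chosen with earlier results of these data known. Members named are the 5 highest and 5 lowest in level, the 12 largest changes among those that passed and the 4 lowest changes in T-ALL, the 3 highest and 3 lowest within each gate, those that passed between gates, and up to 4 that passed in each companion list. Mrps7, Mrps10, Mrps11, Mrps12, Mrps18b, Mrps34, Mrpl21, Mrpl36, Mrpl46 and Mrpl47 and the overlapping genes were named after their values were seen. Alternatives were another pseudocount (0.1), filter (none, or a mean of at least 5 FPKM), scaling or prior, no gate term, each library left out, and, added after seeing the data, removal of a length or GC trend.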

Additional observations from a re-analysis of the deposited data

Results flagged for a closer look

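For 9 of the 78 members the change from normal to T-ALL went up in at least 1 gate and down in another. The other 69 rose in all 3 gates. Of the 11616 tested genes 3236 rose and 3487 fell in all 3 gates, so a mixed direction was not particular to the members. With 1 library per gate and state, the difference between gates was not tested. Given as the distance between the highest and the lowest gate on the log2(FPKM + 1) scale, it was 1.00 for Mrpl33 (0.75 in Ly6cloF4/80hi, −0.25 in Ly6chiF4/80lo), 0.74 for Mrps26, 0.72 for Mrps25, 0.68 for Mrpl21, 0.58 for Mrps6, 0.49 for Mrpl35, 0.46 for Mrpl27, 0.33 for Mrpl1 and 0.32 for Mrpl4. In 8 of the 9 the Ly6chiF4/80lo gate was below 0; Ly6cloF4/80hi was below 0 in Mrpl27, Mrpl35 and Mrpl1. The lowest gate of Mrpl21, Mrpl4 and Mrps26 was only just below 0 (−0.02, −0.01 and −0.03), and Mrps25 rested on 22.2 fragments in its lowest library.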

How the results depend on the processing

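The members' median log2 change in T-ALL kept its direction in all 15 alternatives, between 0.39 (length trend removed) and 0.56, and 0 members fell in any of them. These alternatives are not independent. Filter, prior and gate term cannot move this median, which was 0.492 in each of those settings. Leaving out either library of a gate gave the same median, 0.561, 0.535 or 0.434 in the gate order. The count of members that rose moved from 25 to 1 with no filter on low values (1.28% of members, 1.82% of all genes), 15 with no trend and no robust prior (19.2%, 6.57%), and 1 with no gate block (1.28%, 1.27%); leaving out 1 library gave between 1 and 14 (1.28% to 17.9% of members, 2.2% to 7.23% of all genes). The cause was not tested. Mrps6 in Ly6cloF4/80hi against Ly6chiF4/80lo was lost (0 members) with no filter and with no gate block, and leaving out 1 library gave 0 to 1. In Ly6cloF4/80lo against Ly6chiF4/80lo it was lost (0 members) with no filter, median-ratio rescaling, quantile normalization, no trend and robust prior, no gate block, and the length or GC trend removed, and leaving out 1 library gave 0 to 1. The median within Ly6cloF4/80hi moved from 0.64 to 0.44 with the length trend removed. Of 210 repeats for the 14 named members that had a call, 95 lost it and 0 changed direction. In these repeats too, filter, prior and gate term could not move the size of the change. No paired analysis by replicate number was possible because each gate and state has 1 library. With a library left out, the other library of its gate is taken up by the gate term, so the change in T-ALL then rests on the other 2 gates; between gates the lone sample is assumed to vary like the others.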
